A study of Mus musculus with 9 samples.

Results

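A group of 10 genes of endothelial BMP and TGF-β signaling was followed in RNA-seq libraries of mouse meningeal lymphatic endothelial cells (MLECs). The genes were the ligand Bmp4, the receptors Acvrl1, Eng, Bmpr2 and Tgfbr2, the inhibitory Smads Smad6 and Smad7, and the transcriptional targets Id1, Id2 and Id3. They were chosen by symbol, with earlier results of these data known, and 10 of 10 were found among the 24321 gene symbols measured. The study asked how MLECs respond to tumors in the skull. Control mice received PBS, GL261 mice received cells of a mouse glioma line, and B16 mice received cells of a mouse melanoma line. All mice were male and 10 weeks old per the labels, with no transgene stated for these samples. By the labels, cells were collected about 3 weeks after injection of GL261 and about 2 weeks after injection of B16, whereas the results section of the study gives 2 weeks for every group and the methods 2 to 3 weeks. If the labels hold, tumor type and time cannot be told apart. Each group had 3 libraries, each from meninges pooled from 6 mice and from 10 sorted cells, amplified by Smart-seq2. The labels give 100000 tumor cells into the cisterna magna, which the methods of the study also describe, but their account of MLEC collection names subdural injection. The labels and the methods name CD31, CD45 and LYVE-1 as sort markers, and the results section names PDPN instead of LYVE-1. Levels are given as FPKM (fragments counted on a gene, scaled by transcript length and by the mapped fragments of the library), a scale on which genes can be compared within a library. The summed FPKM was 652636 to 693117 in control and 701951 to 888312 in tumor-associated libraries (GL261 or B16), without overlap, so that differences between these groups also depend on the scaling.

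In endothelial cells, BMP ligands bind complexes of a type I receptor such as ALK1 (encoded by Acvrl1) and a type II receptor such as BMPR2, with endoglin (Eng) as co-receptor, and these complexes phosphorylate Smad1 and Smad5, which enter the nucleus with Smad4. The Id genes are direct targets of these Smads and encode inhibitors of basic helix-loop-helix transcription factors, while Smad6 and Smad7 are induced by the same signal and limit it. TGF-β ligands bind TGFBR2, which acts mainly through Smad2 and Smad3, and ALK1 signaling is known to restrain lymphatic identity genes such as Prox1.

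The values are FPKM without read counts. The depth behind them is unknown, and no counting error can be attached to an FPKM. The number of genes with an FPKM above 0 was 7303, 8688 and 8152 in control replicates 1 to 3, 10777, 10852 and 9456 in the GL261 replicates, and 8736, 9258 and 9950 in the B16 replicates. Each control library thus had fewer genes above 0 than each tumor-associated library. Tbp encodes the TATA-binding protein, needed in all cells, and was listed at 0 in control replicates 1 and 3, at 1.31 FPKM in control replicate 2 and at 9.06 to 16.7 FPKM in tumor-associated libraries. A value of 0 is therefore given below only as listed at 0.

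Eng, Id1 and Id3 were higher and Tgfbr2 was lower in tumor-associated MLECs than in control MLECs, and Smad6 was above 0 only in tumor-associated libraries. These 5 of the 10 genes passed an adjusted p of 0.05 in limma, Benjamini-Hochberg adjusted over 9955 tested genes, 4 of them higher and 1 lower. Smad6 reached the minimum level for testing (1 FPKM in 3 libraries) through tumor-associated libraries alone, so that it had to differ, and its place in the counts and the median is no support for a difference. Among all genes tested, 289 (2.9%) passed as higher and 102 (1.02%) as lower. Overlap of a gene between groups refers here and below to FPKM as deposited. Tumor-associated and control values did not overlap for 5 of the 10 genes. Eng, Bmpr2, Id3 and Smad6 were higher (6.08% of all genes tested) and Tgfbr2 was lower (4.44%), against 10.5% of all genes tested in either direction. With libraries at equal sums, Eng of control replicate 1 lies above GL261 replicate 1. Bmpr2 of control replicate 2 then lies above B16 replicate 1. The median difference of the 10 genes was 1.61 on the log2(FPKM + 1) scale, and that of all genes tested was 0.20. Because the 10 genes were chosen with earlier results of these data known, these shares and medians are descriptions and no test of the group. At an unadjusted p under 0.05, 8 of the 10 genes and 1889 of all genes tested passed.

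The median over all genes tested depended on the scaling, at 0.05 after each library was rescaled to the same sum and -0.04 after quantile normalization. The directions of the 5 genes were the same under both scalings, although Eng and, with rescaling, Id1 no longer passed. With the number of genes above 0 as a covariate, 0 of the 10 genes and 13 of all genes tested passed in limma. At an unadjusted p under 0.05 there, 7 of the 10 genes and 1019 of all genes tested passed. The number of genes above 0 separates the groups, so its part and that of the tumors cannot be told apart.

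The lymphatic markers Prox1 and Lyve1 were above 0 in all 9 libraries, Prox1 at 20.9 to 42.2 FPKM among controls and 1.87 to 16.5 FPKM among tumor-associated libraries, and Lyve1 at 974 to 1705 and 628 to 1895 FPKM. Endothelial markers moved between the groups together with these genes. Of 8 tested lymphatic markers, 4 were lower in tumor-associated MLECs and 0 were higher in limma. Of 8 blood endothelial markers, 7 were higher and 0 lower. Of these, Flt1 and Ly6c1 entered the test through tumor-associated libraries alone, and Vwf reached 1 FPKM among controls only in replicate 2 (1.92 FPKM). The summed FPKM of the 9 lymphatic markers, of which Ccl21c was the most abundant by mean over all 9 libraries (the measure used for each list), was 13419, 17005 and 13935 in control, 2074, 1075 and 2941 in GL261, and 6698, 2133 and 4104 in B16 replicates 1 to 3. Each control library was above each tumor-associated library. By mean over the GL261 libraries, Lyve1 (1048 FPKM) was above Ccl21c (533 FPKM). In GL261 replicate 1, however, Ccl21c (810 FPKM) was above Lyve1 (777 FPKM). The summed FPKM of the 8 blood endothelial markers, of which Plvap was the most abundant, was 843, 1579 and 972 in control, 8724, 8859 and 5753 in GL261, and 4385, 7332 and 5644 in B16 libraries, in the reverse order and again without overlap. Ly6c1, listed at 0 in the controls, was above Plvap in each GL261 library (1886 to 4375 beside 1462 to 2004 FPKM). Of 6 pan-endothelial markers, with Egfl7 the most abundant, 0 passed in limma (2 at an unadjusted p under 0.05), and their sum was 1466 to 2169 FPKM among controls and 1656 to 2455 FPKM in tumor-associated libraries. In these pooled cells, fewer cells of a type and less RNA per cell cannot be told apart, and the part of the marker shifts in the differences of Eng, Id1, Id3, Smad6 and Tgfbr2 was not tested.

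**Figure D1:**
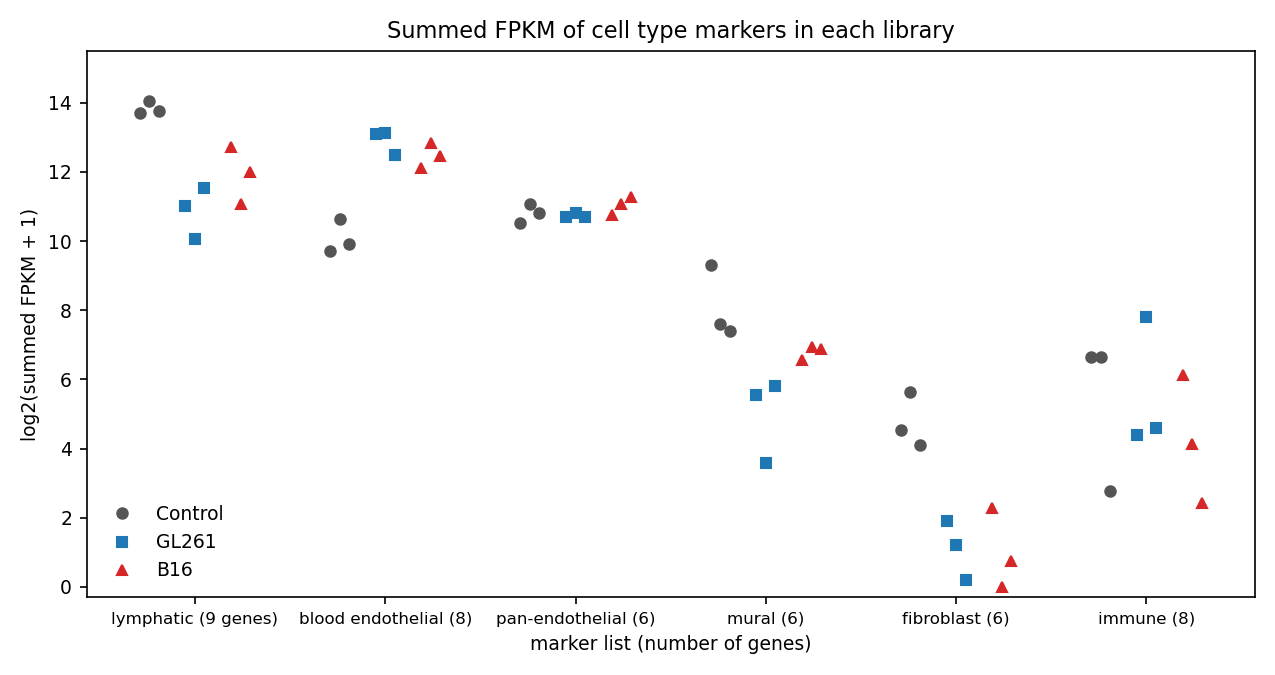
Summed FPKM of each cell type marker list, as log2(summed FPKM + 1), in the 3 control, 3 GL261 and 3 B16 libraries (1 point per library). The lymphatic sums of control libraries (13419 to 17005 FPKM) lay above all tumor-associated sums, and the blood endothelial sums of control libraries (843 to 1579 FPKM) lay below them.

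Of the markers of other cells, the mural and fibroblast sums were lower in every tumor-associated library than in every control library. Among 6 mural markers, with Kcnj8 the most abundant, only Kcnj8 was tested and it did not pass, although it was lower in GL261 than in control at an unadjusted p of 0.0103 (-2.22 on the log2(FPKM + 1) scale, limma adjusted p = 0.133). Control replicate 1 stood apart with Acta2 at 505 and Myh11 at 57.2 FPKM, beside at most 6.34 and 0.0813 FPKM in the other 8 libraries, and with Tagln at 641 FPKM beside at most 2.15. The summed mural markers were 627, 195 and 169 FPKM in control, 45.8, 11.1 and 55.1 FPKM in GL261, and 93.5, 121 and 116 FPKM in B16 libraries. Kcnj8 made up nearly all of this sum in control replicates 2 and 3 (195 and 169 FPKM). By itself Kcnj8 overlapped between the groups, at 59.9 FPKM in control replicate 1 and 6.56 to 116 FPKM in tumor-associated libraries. Rgs5 was above 0 only in GL261 replicate 2 (4.54 FPKM) and B16 replicate 2 (5.05 FPKM). Results that rest on control replicate 1 are given with and without it.

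Of 6 fibroblast markers only Dcn, the most abundant, was tested, through the control libraries alone, and it passed as lower in tumor-associated MLECs. The fibroblast sum was 22.1, 49.0 and 16.2 FPKM in control, 2.74, 1.30 and 0.146 FPKM in GL261, and 3.85, 0 and 0.675 FPKM in B16 libraries, with Lum listed at 0 in all. Of 8 immune markers, 3 were tested and 0 passed in limma (0 at an unadjusted p under 0.05), and the pan-leukocyte gene Ptprc and the T-cell gene Cd3e were listed at 0 in all 9 libraries. The immune sum, led by C1qa, was 98.9, 99.1 and 5.88 FPKM in control, 19.8, 224 and 23.2 FPKM in GL261, and 68.3, 16.5 and 4.38 FPKM in B16 libraries. The groups overlapped in it. The melanocyte genes Mlana, Tyr, Tyrp1 and Mitf and the glial genes Gfap and Sox2 were listed at 0 in all libraries. The sum of the melanoma list (most abundant Pmel) did not exceed 4.07 FPKM, in GL261 replicate 2. Among 8 genes that all cells use, with Ppia the most abundant, Actb, Gapdh and Tbp passed as higher in tumor-associated MLECs, and 0 passed as lower. Tbp reached 1 FPKM among controls only in replicate 2 (1.31 FPKM), so that it met the minimum level for testing through tumor-associated libraries.

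**Figure D2:**
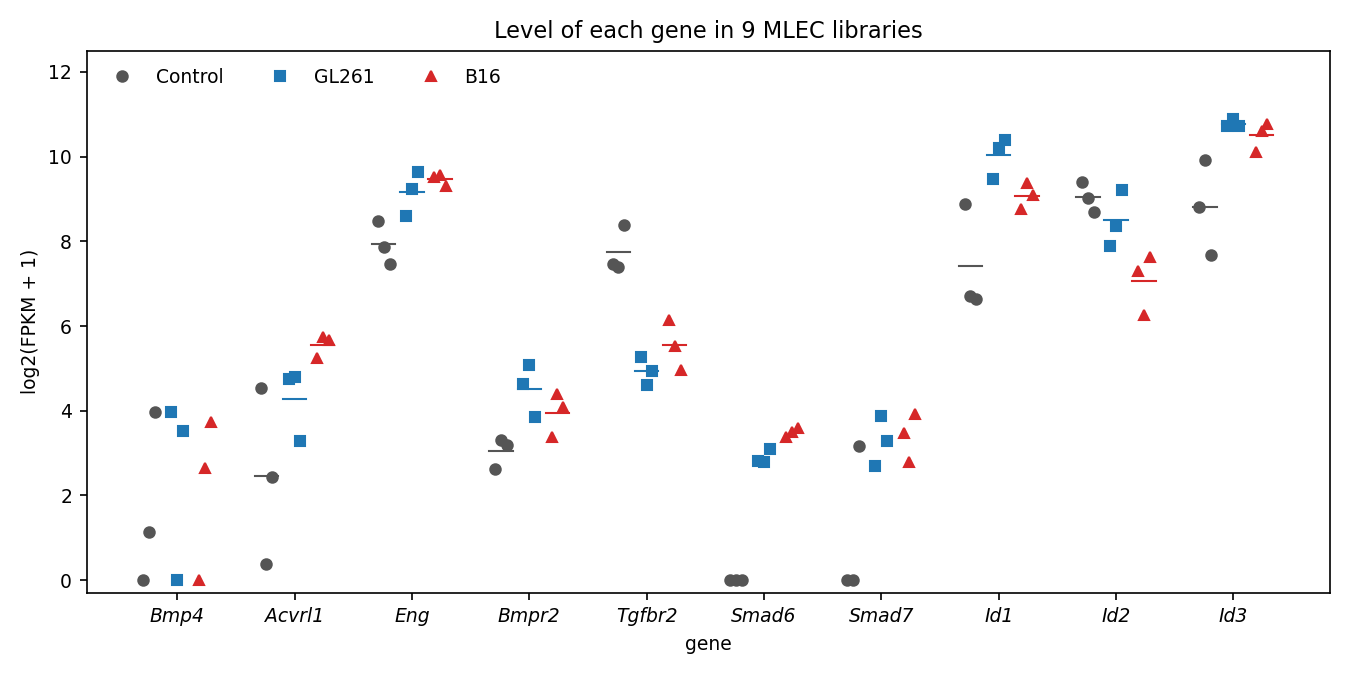
Level of each of the 10 genes as log2(FPKM + 1) in the 9 libraries, 1 point per library. Short lines are group means over 3 libraries and are left out for genes listed at 0 in any library. Smad6 lay at 0 in the 3 control libraries, and Tgfbr2 was the gene whose control values all lay above the tumor-associated ones.

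Bmp4 encodes the BMP ligand of the group, a secreted factor that binds BMP type I and type II receptors (chromosome 14 of mm9, 47003195 to 47010344, minus strand). Antisense genes, Gm15217 and Gm15222, are annotated across parts of it, and Smart-seq2 keeps no strand, so reads from a gene and its antisense partner cannot be told apart. The FPKM of Bmp4 was 0, 1.19 and 14.6 in control, 14.7, 0 and 10.4 in GL261, and 0, 5.27 and 12.3 in B16 replicates 1 to 3. Libraries listed at 0 and libraries above 10 FPKM occurred both among GL261 and among B16 libraries, and the groups overlapped fully. The difference between tumor-associated and control MLECs was 0.61 on the log2(FPKM + 1) scale (SE 1.17, 95% interval -1.91 to 3.14, limma adjusted p = 0.829). Without control replicate 1 it was -0.23, so that no direction can be given for Bmp4.

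Eng, on chromosome 2 of mm9 from 32502115 to 32538189 (plus strand), encodes endoglin, the co-receptor that presents BMP ligands to ALK1. Its FPKM was 355, 233 and 176 in control, 388, 601 and 792 in GL261, and 734, 753 and 634 in B16 replicates 1 to 3. The lowest tumor-associated library, GL261 replicate 1, was just above the highest control library, control replicate 1, and the groups did not overlap. With libraries at equal sums the order of these libraries is reversed, and the groups overlap. Eng averaged 255 ± 91.8 FPKM in control (SD, n = 3) and 650 ± 148 FPKM in tumor-associated MLECs (SD, n = 6), a ratio of means of 2.55. The difference was 1.37 on the log2(FPKM + 1) scale (SE 0.29, limma with Benjamini-Hochberg adjustment, adjusted p = 0.0197). In FPKM as deposited, 6 of 6 tumor-associated libraries were above all controls.

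The call for Eng was lost in 6 of 17 alternatives, namely without control replicate 2 (limma adjusted p = 0.0514) or control replicate 3 (adjusted p = 0.0790), after rescaling to equal sums (1.15, adjusted p = 0.0657), after quantile normalization (1.13, adjusted p = 0.0574), in eBayes without a trend (adjusted p = 0.133) and with the covariate for genes above 0 (adjusted p = 0.0589). Over 17 alternatives the difference of Eng stayed between 1.13 and 2.05, with limma adjusted p from 0.0111 to 0.133. It was 1.64 without control replicate 1. The pan-endothelial adhesion gene Pecam1 did not pass. In FPKM as deposited it was itself higher without overlap, with controls at 150 to 293 and tumor-associated libraries at 309 to 468 FPKM. This lowers ratios to Pecam1 in the latter. With libraries at equal sums, however, Pecam1 of control replicates 1 and 2 lies above GL261 replicate 2. Eng FPKM divided by Pecam1 FPKM was 0.798 to 1.21 in control and 1.01 to 2.56 in tumor-associated libraries, so that the groups overlapped in this ratio. In the annotation, Eng shares its start with the end of Ak1 on the same strand and its end with that of Fpgs on the opposite strand. Reads from these short stretches cannot be assigned by position alone.

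Tgfbr2 encodes the type II receptor of TGF-β (chromosome 9 of mm9, 115993415 to 116084383, minus strand). Its FPKM was 176, 168 and 335 in control, 37.8, 23.5 and 29.6 in GL261, and 69.5, 45.4 and 30.3 in B16 replicates 1 to 3. All 6 tumor-associated libraries were far below the lowest control library. The mean was 226 ± 94.4 FPKM in control (SD, n = 3) and 39.3 ± 16.6 FPKM in tumor-associated MLECs (SD, n = 6), a ratio of 5.75 between control and tumor-associated means. On the log2(FPKM + 1) scale Tgfbr2 fell by 2.51 (SE 0.42, limma adjusted p = 0.00523).

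Of the 17 alternatives for Tgfbr2, 1 ended the call, the covariate for genes above 0 (-1.88, limma adjusted p = 0.317), in a range of adjusted p from 0.00309 to 0.317. With 1 library left out the difference of Tgfbr2 lay between -2.69 and -2.19, and it was -2.65 without control replicate 1. Tgfbr2 was divided by Pecam1 to set it against a gene of all endothelium, and the ratio was 0.576 to 2.24 in control and 0.0646 to 0.195 in tumor-associated libraries. These ranges did not overlap, and the higher FPKM of Pecam1 widens the gap. Divided by the lymphatic marker Flt4, Tgfbr2 overlapped between the groups. It had 37.8 FPKM beside 40.1 FPKM of Flt4 in GL261 replicate 1, and 168 beside 205 FPKM in control replicate 2. Divided by the lymphatic marker Lyve1 it did not overlap. The part of the lower lymphatic markers in the fall of Tgfbr2 was not tested. The FPKM of Eng divided by that of Tgfbr2 in the same library was 2.02, 1.39 and 0.524 in control, 10.3, 25.5 and 26.8 in GL261, and 10.6, 16.6 and 20.9 in B16 libraries. This ratio, which scaling of a library does not change, was higher in every tumor-associated library than in any control library. Because Eng was higher and Tgfbr2 lower without overlap, the ratio had to separate the groups and is no further support.

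Acvrl1 encodes the BMP type I receptor ALK1 (chromosome 15 of mm9, 100958953 to 100975767, plus strand), and an antisense transcript, Gm16031, is annotated inside it. Its FPKM was 22.3, 0.311 and 4.44 in control, 25.9, 26.8 and 8.80 in GL261, and 36.6, 52.5 and 50.1 in B16 replicates 1 to 3. The highest values were those of the B16 libraries, and control replicate 1 lay above GL261 replicate 3. The difference between tumor-associated and control MLECs was 2.46 on the log2(FPKM + 1) scale (SE 0.84, limma adjusted p = 0.131) and did not pass.

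Control replicate 1, the library with Acta2 and Myh11, had the highest Acvrl1 level among controls. Without it, the difference of Acvrl1 was 3.50 (SE 0.78) and passed in limma (adjusted p = 0.0377), in a range of adjusted p from 0.0377 to 0.328 over 17 alternatives. Without control replicate 2, the library with the lowest value, it was 1.42. The part of the smooth muscle transcripts in the level of Acvrl1 in that library was not tested.

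Bmpr2, the BMP type II receptor on chromosome 1 of mm9 (59821481 to 59927703, plus strand), had an FPKM of 5.21, 8.84 and 8.18 in control, 23.7, 33.0 and 13.4 in GL261, and 9.46, 20.0 and 15.96 in B16 libraries. The groups did not overlap, but the lowest tumor-associated value, that of B16 replicate 1, was close to the highest control value. With libraries at equal sums, control replicate 2 lies above B16 replicate 1. Bmpr2 averaged 7.41 ± 1.94 FPKM in control (SD, n = 3) and 19.3 ± 8.36 FPKM in tumor-associated MLECs (SD, n = 6). The difference of 1.19 on the log2(FPKM + 1) scale (SE 0.57, 95% interval -0.03 to 2.42) did not pass in limma (adjusted p = 0.274), nor under any of 17 alternatives. It was 0.15 with the covariate for genes above 0.

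Smad6 encodes an inhibitory Smad that acts mainly on BMP receptors (chromosome 9 of mm9, 63800953 to 63869866, minus strand). It was listed at 0 in the 3 control libraries and had 6.07, 5.90 and 7.51 FPKM in GL261 and 9.45, 10.2 and 11.1 FPKM in B16 replicates 1 to 3. All 6 tumor-associated libraries held Smad6 at similar levels, and each B16 library was above each GL261 library. No fold is given against a group listed at 0, and no p, since Smad6 met the minimum level for testing through the tumor-associated libraries alone. The same pattern, 0 in all controls and above 0 in all tumor-associated libraries, was found for 153 (1.54%) of the genes tested.

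Smad7, on chromosome 18 of mm9 from 75527183 to 75555589 (plus strand), encodes an inhibitory Smad that acts on both TGF-β and BMP receptors. Its FPKM was 0, 0 and 8.02 in control, 5.47, 13.7 and 8.69 in GL261, and 10.1, 5.96 and 14.1 in B16 replicates 1 to 3. Control replicate 3 lay within the tumor-associated range, and the other control libraries were listed at 0. The difference of 2.28 on the log2(FPKM + 1) scale (SE 0.83) did not pass in limma (adjusted p = 0.156, range over 16 alternatives 0.0335 to 0.627). It passed only when control replicate 3 was left out (adjusted p = 0.0335) and was 1.75 without control replicate 1.

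Id1, on chromosome 2 of mm9 from 152561987 to 152563146 (plus strand), encodes a helix-loop-helix protein without a DNA-binding domain and is among the most direct targets of BMP signaling. Its FPKM was 474, 103 and 98.7 in control, 712, 1182 and 1346 in GL261, and 434, 665 and 545 in B16 replicates 1 to 3. Control replicate 1 lay above B16 replicate 1, and the other control libraries were far below all tumor-associated ones. The GL261 libraries were the highest. The mean was 225 ± 215 FPKM in control (SD, n = 3), 1080.4 ± 329 FPKM in GL261 (SD, n = 3) and 548 ± 116 FPKM in B16 (SD, n = 3). Tumor-associated MLECs were higher by 2.14 on the log2(FPKM + 1) scale (SE 0.49, limma adjusted p = 0.0292).

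The call for Id1 was lost in 11 of 17 alternatives, with limma adjusted p from 0.00278 to 0.317. It was lost without control replicate 2 (adjusted p = 0.101), control replicate 3 (adjusted p = 0.114), GL261 replicate 1 (adjusted p = 0.0558), GL261 replicate 2 (adjusted p = 0.0629), GL261 replicate 3 (adjusted p = 0.0535) or B16 replicate 2 (adjusted p = 0.0504). The difference stayed between 1.76 and 2.88 over all 17 alternatives. Without control replicate 1, the control library with smooth muscle transcripts and the highest Id1 level, it was 2.88 (SE 0.41, limma adjusted p = 0.00278). The part of those transcripts in the Id1 level was not tested.

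Id3, on chromosome 4 of mm9 from 135699412 to 135701670 (plus strand), encodes a protein of the same kind. Its FPKM was 451, 965 and 203 in control, 1691, 1888 and 1694 in GL261, and 1106, 1560 and 1754 in B16 replicates 1 to 3. No control library reached the lowest tumor-associated one, and the controls were far apart from one another. Id3 averaged 540 ± 389 FPKM in control (SD, n = 3) and 1616 ± 272 FPKM in tumor-associated MLECs (SD, n = 6), a ratio of 2.99. The difference was 1.84 on the log2(FPKM + 1) scale (SE 0.37, limma adjusted p = 0.0148). Without control replicate 1 it was 1.85 and just missed the threshold (limma adjusted p = 0.0526), in a range of adjusted p from 0.00128 to 0.460 over 17 alternatives, of which 4 ended the call.

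Id2, on chromosome 12 of mm9 from 25778666 to 25780957 (minus strand), encodes another helix-loop-helix inhibitor of this family. Its FPKM was 676, 521 and 413 in control, 237, 328 and 596 in GL261, and 157, 75.5 and 196 in B16 replicates 1 to 3. The B16 libraries were the lowest, and GL261 replicate 3 lay within the control range. The mean was 536 ± 132 FPKM in control (SD, n = 3), 387 ± 186 FPKM in GL261 (SD, n = 3) and 143 ± 61.4 FPKM in B16 (SD, n = 3). Over both tumors the difference was -1.26 on the log2(FPKM + 1) scale (SE 0.50) and did not pass in limma (adjusted p = 0.193), nor under any of 17 alternatives.

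The makeup of the Id transcripts was compared within each library, where a common scaling drops out. Id2 made up 42.2%, 32.8% and 57.8% of the summed FPKM of Id1, Id2 and Id3 in control, 8.99%, 9.64% and 16.4% in GL261, and 9.25%, 3.28% and 7.85% in B16 replicates 1 to 3. The share of Id2 in every tumor-associated library was below that in every control library. Id3 held 28.2%, 60.8% and 28.4% of the sum in control and 46.6% to 70.3% in tumor-associated libraries, and Id1 held 29.6%, 6.48% and 13.8% in control and 21.8% to 37.0% in tumor-associated libraries. Both overlapped between the groups, Id3 through control replicate 2 and Id1 through control replicate 1. The summed FPKM itself, which does depend on the scaling, was 714 to 1600.5 in control and 1697 to 3636 in tumor-associated libraries. These ranges did not overlap, but with libraries at equal sums control replicate 1 lies above B16 replicate 1. These shares are descriptions and were given no test.

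The order of levels among the 10 genes differed between control and tumor-associated MLECs. By median FPKM in control, Id2 (521) came first, followed by Id3 (451), Eng (233), Tgfbr2 (176) and Id1 (103). Each of these overlapped its neighbor in the range of the 3 libraries. A gap without overlap separated them from Bmpr2 (8.18), Acvrl1 (4.44), Bmp4 (1.19) and the inhibitory Smads, with medians of 0. By median in tumor-associated libraries, Id3 (1693) led, followed by Id1 (689), Eng (684) and Id2 (217), and the ranges of these neighbors overlapped. The tumors differed in this order, with Id1 (1182) above Eng (601) in GL261, and Eng (734) above Id1 (545) and Acvrl1 (50.1) above Tgfbr2 (45.4) in B16, each pair overlapping in range. The other genes, over both tumors, followed after a gap without overlap, with Tgfbr2 (34.0) next to Acvrl1 (31.7) and Bmpr2 (18.0), then Smad7 (9.38), Smad6 (8.48) and Bmp4 (7.86), each overlapping its neighbor. Among all 9955 genes tested, Id3 ranked 229 by median FPKM in control and 70 in tumor-associated libraries, and Tgfbr2 ranked 556 and 2116.

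Against the shared controls, 3 of the 10 genes passed for GL261 in limma, with Id1 and Id3 higher (2.58% of all genes tested passed as higher) and Tgfbr2 lower (0.904%). The differences on the log2(FPKM + 1) scale were 2.62 for Id1 (SE 0.52, limma adjusted p = 0.0197), 1.98 for Id3 (SE 0.44, adjusted p = 0.0308) and -2.81 for Tgfbr2 (SE 0.47, adjusted p = 0.00888). Eng (1.22, SE 0.33, limma adjusted p = 0.0720) just missed the threshold. The count was 1, Tgfbr2 alone, without GL261 replicate 2 or GL261 replicate 3, and 2 without control replicate 2, control replicate 3, GL261 replicate 1 or B16 replicate 2. Without control replicate 1 it was 3, with Eng, Id1 and Tgfbr2. The call for Tgfbr2 was kept in all these leave-outs.

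For B16, 4 of the 10 genes passed in limma, with Eng and Smad6 higher (1.61% of all genes tested) and Tgfbr2 and Id2 lower (0.502%). The differences were 1.53 for Eng (SE 0.33, limma adjusted p = 0.0371), -2.21 for Tgfbr2 (SE 0.47, adjusted p = 0.0364) and -1.98 for Id2 (SE 0.43, adjusted p = 0.0376), and Smad6 is counted with the limit given above. Id3 (1.70, SE 0.44, limma adjusted p = 0.0738) and Id1 (1.67, SE 0.52, adjusted p = 0.145) did not pass. These calls lay close to the threshold. The count was 0 without control replicate 3, GL261 replicate 2, B16 replicate 2 or B16 replicate 3. In each of these, 7 or 8 genes had an unadjusted p under 0.05 in limma, as did 1191 to 1540 of all genes tested. The count was 1 without B16 replicate 1 and 2 without GL261 replicate 1. Without control replicate 1 it was 3, with Acvrl1, Eng and Id1.

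GL261 and B16 MLECs were compared directly in the same fit, which also tests whether their differences from the shared controls differ. In limma, 0 of the 10 genes passed, and 1 of all genes tested (0.01%), B2m, named here after its value was seen, did. At an unadjusted p under 0.05, 1 of the 10 genes and 548 of all genes tested passed. Id2 was the gene past the unadjusted level, at a difference of 1.43 on the log2(FPKM + 1) scale in favor of GL261 (SE 0.43, 95% interval 0.49 to 2.37, limma adjusted p = 0.478). Id1 differed by 0.95 (95% interval -0.20 to 2.10) and Acvrl1 by -1.27 (95% interval -3.34 to 0.80). The calls of Id1 and Id3 in GL261 and of Eng and Id2 in B16 are thus not shown to differ between the tumors, and these intervals still hold differences larger than 1 on the log2 scale.

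**Figure D3:**
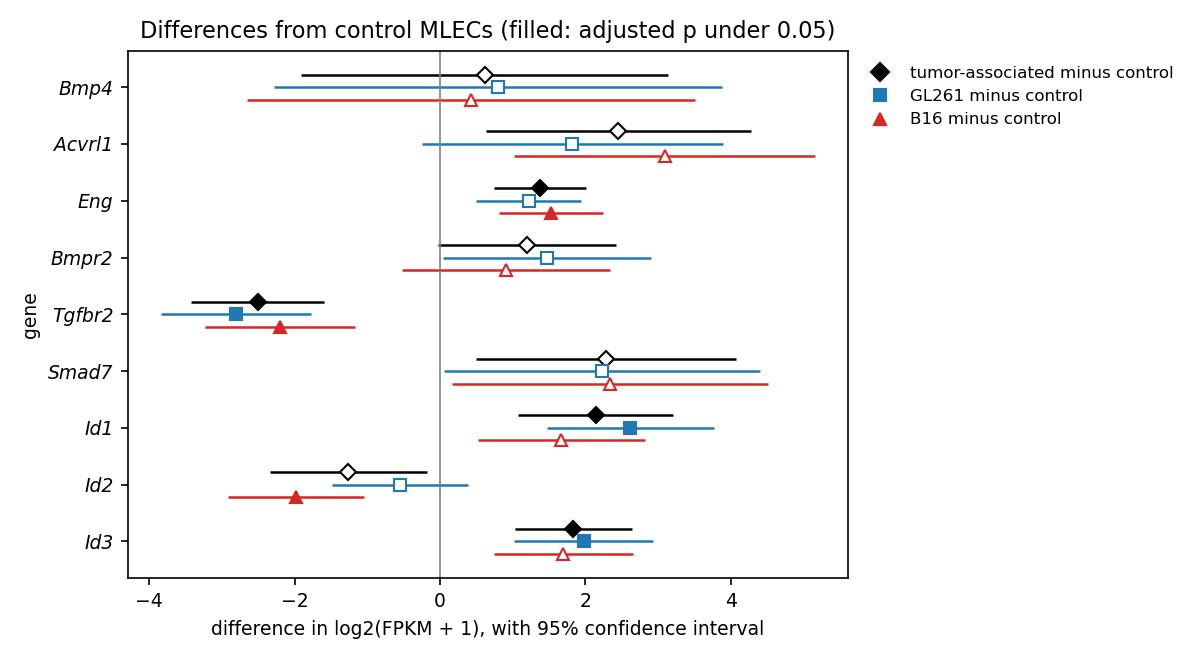
Differences from control MLECs on the log2(FPKM + 1) scale for 9 of the 10 genes, with 95% confidence intervals from limma, for both tumors together (n = 6 against 3), GL261 (n = 3 against 3) and B16 (n = 3 against 3). Filled symbols passed an adjusted p of 0.05. Smad6 is not drawn because its control libraries were listed at 0. Tgfbr2 was lower in all 3 comparisons, which share their controls.

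The other genes of the pathway were taken from lists of ligands, receptors, signaling Smads, extracellular and intracellular regulators, targets and Id partners. Of 83 such genes outside the 10, 63 were above 0 FPKM in some library, 47 were tested, 3 passed as higher in tumor-associated MLECs and 1 as lower in limma. Of those higher, Inhbb and Tgfbi entered the test through tumor-associated libraries alone, so that they had to differ and are given without a p. The median difference of the 47 genes was 0.46 on the log2(FPKM + 1) scale, beside 0.20 for all genes tested.

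Among 19 ligands other than Bmp4, 8 were listed at 0 in all libraries, among them Gdf2 and Bmp10, the circulating high-affinity ligands of ALK1. Of 6 tested ligands, 1 was higher and 1 was lower. Inhbb, which encodes an activin subunit and was the most abundant ligand, was listed at 0 in the 3 control libraries and had 22.3, 14.5 and 10.7 FPKM in GL261 and 50.6, 19.6 and 37.8 FPKM in B16 libraries. Tgfb3, a TGF-β ligand that binds TGFBR2, had 41.3, 30.0 and 23.5 FPKM in control, 0.911, 1.13 and 0.0707 FPKM in GL261, and 7.27, 1.17 and 0.414 FPKM in B16 libraries. No tumor-associated library reached the lowest control, and the difference was -3.86 on the log2(FPKM + 1) scale (SE 0.77, limma adjusted p = 0.0139). The call for Tgfb3 was lost in 2 of 17 alternatives (limma adjusted p from 0.00475 to 0.427), the covariate for genes above 0 and the fit without control replicate 1 (-3.65, adjusted p = 0.0509). Gdf15 was listed at 0 in 2 of 3 control and 3 of 6 tumor-associated libraries and did not pass.

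Of the 9 receptors outside the 10 genes, 4 were tested and 0 passed in limma (0 at an unadjusted p under 0.05). The most abundant were Tgfbr3, which encodes the co-receptor betaglycan (26.9 ± 17.8 FPKM in control, SD, n = 3, and 9.33 ± 4.20 FPKM in tumor-associated MLECs, SD, n = 6), Acvr1 and Acvr2a. Tgfbr2 FPKM divided by Tgfbr3 FPKM was 7.18 to 14.0 in control and 1.83 to 6.35 in tumor-associated libraries, so that Tgfbr2 was lower also relative to this receptor. Of 6 signaling Smads 5 were tested and 0 passed in limma (1 at an unadjusted p under 0.05). Smad1 was the most abundant of them, at 120 ± 42.3 FPKM in control (SD, n = 3) and 59.3 ± 26.1 FPKM in tumor-associated MLECs (SD, n = 6), followed by Smad4 and Smad5, and Smad9 was listed at 0 in all libraries.

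Of 18 extracellular modulators 7 were tested and 0 passed in limma (3 at an unadjusted p under 0.05), with Fstl1, Bambi and Twsg1 the most abundant and the BMP antagonists Nog and Grem1 listed at 0 in all libraries. Of 10 intracellular regulators 9 were tested and 0 passed (1 at an unadjusted p under 0.05 in limma), with Tgif1, Skil and Zeb1 the most abundant. Of 5 genes for partners of the Id proteins or their targets, led by Tcf4, Lyl1 and Tcf12, 5 were tested and 0 passed (1 at an unadjusted p under 0.05 in limma). Tcf4 had 50.8 ± 12.4 FPKM in control (SD, n = 3) and 45.8 ± 6.82 FPKM in tumor-associated MLECs (SD, n = 6).

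Of 9 BMP targets outside the Id genes named above, 5 were tested and 1, Gata2, was higher in tumor-associated MLECs. Gata2, an endothelial and hematopoietic transcription factor, had 0.201, 7.44 and 0 FPKM in control. It had 13.0, 27.3 and 27.9 FPKM in GL261 and 9.24, 13.5 and 56.7 FPKM in B16 libraries (limma adjusted p = 0.0431 for tumor-associated against control). Among controls only replicate 2 reached 1 FPKM. Gata2 thus met the minimum level for testing through the tumor-associated libraries, which limits its call. The groups did not overlap, and the call was lost in 13 of 17 alternatives (limma adjusted p from 0.00975 to 0.595), among them without control replicate 1 (adjusted p = 0.123), control replicate 3 (adjusted p = 0.123), each GL261 replicate (adjusted p = 0.0709, 0.0950 and 0.0806), B16 replicate 2 (adjusted p = 0.0635) and B16 replicate 3 (adjusted p = 0.0947). Hes1 was the most abundant of these targets, at 406 ± 130 FPKM in control (SD, n = 3) and 638 ± 199 FPKM in tumor-associated MLECs (SD, n = 6), and it did not pass, nor did Tmem100.

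Of 7 TGF-β targets 6 were tested and 1 passed as higher. Tgfbi, a secreted matrix protein gene, was listed at 0 in the 3 control libraries and had 59.0, 97.6 and 89.1 FPKM in GL261 and 20.2, 113 and 70.8 FPKM in B16 libraries. Tgfbr2, the receptor through which TGF-β induces such targets, was lower in the same libraries. Inhbb and Tgfbi belong to genes the study had picked as higher in these same samples, so that their direction is not independent evidence. Ctgf, the most abundant TGF-β target, overlapped between the groups, and Tagln was high only in control replicate 1.

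The pattern of Eng over the 9 libraries was most like those of Zfp36, Riok3 and Gna13, with root mean square differences of 0.206, 0.253 and 0.292 between centred log2(FPKM + 1) values. Zfp36 had 262, 145 and 103 FPKM in the controls and 252 to 509 FPKM in tumor-associated libraries. The pattern of Id1 was most like those of Fam98b, Anapc7 and Pola2, at 0.447, 0.465 and 0.491. Anapc7 had 7.96, 0 and 0 FPKM in the controls and 5.43 to 12.2 FPKM in tumor-associated libraries, which shares with Id1 the higher value of control replicate 1.

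Promoters of the 10 genes were searched for letters bound by Smad proteins. RefSeq promoters (GRCm38.p6, 250 bases before to 50 after the gene start) matched 7 of the 10 genes, and Acvrl1, Id1 and Smad7 had no match. On both strands, the palindrome GTCTAGAC was found in the window of Smad6 alone among the 7 and in 0.213% of all 32851 promoters. CAGAC was found in Eng, Id3 and Tgfbr2 and in 49.6% of all promoters. GGCGCC was found in Bmpr2 and Id2 and in 11.9% of all promoters. None of these motifs contains another, and the window of Bmp4 held 0 of them. A match is a description of letters and no evidence of binding.

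The bases before the start of Id3 (chr4:136143572-136143821, plus strand) and Eng (chr2:32646345-32646594, plus strand) are shown as the genes that were higher without overlap and hold CAGAC (Bmpr2, also higher without overlap, holds 0), with CAGAC or its reverse complement in capitals, beginning at bases -167 and -68 of Id3 and -214 and -127 of Eng relative to the gene start. For Smad6 (chr9:64022045-64022074, minus strand), 30 bases around the start are shown with GTCTAGAC in capitals, beginning at base -4.
Id3: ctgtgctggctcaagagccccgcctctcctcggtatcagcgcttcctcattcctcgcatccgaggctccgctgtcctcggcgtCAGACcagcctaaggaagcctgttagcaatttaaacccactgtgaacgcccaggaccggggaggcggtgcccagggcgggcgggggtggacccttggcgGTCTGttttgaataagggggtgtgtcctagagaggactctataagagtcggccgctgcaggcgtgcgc
Eng: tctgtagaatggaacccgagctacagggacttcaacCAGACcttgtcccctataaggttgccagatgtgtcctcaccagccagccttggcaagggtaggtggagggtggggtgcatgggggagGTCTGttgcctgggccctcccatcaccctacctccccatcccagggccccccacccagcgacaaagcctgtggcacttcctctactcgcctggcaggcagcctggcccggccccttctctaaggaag
Smad6: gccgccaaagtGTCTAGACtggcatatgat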

How the data were processed

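The authors trimmed the reads, aligned them to mm9 with TopHat2 2.0.12 and computed expression with Cufflinks 2.2.1 per the submitters' processing notes, and deposited FPKM per gene symbol and library. The gene annotation is not given in the sources used here. Groups and replicate numbers came from the labels, and the labels state that each replicate is a separate pool of mice. The FPKM sums were 652636 to 693117 in control and 701951 to 888312 in tumor-associated libraries, and depth could not be recovered from the values.

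Values were transformed to log2(FPKM + 1). Changes of low genes are understated by this pseudocount. Genes reaching 1 FPKM in 3 or more libraries, 9955 in all, entered limma 3.58.1 in R 4.3.3 (lmFit, eBayes with a trend), and p-values were Benjamini-Hochberg adjusted at a threshold of 0.05. Both tumors were joined against control, and a fit of 3 groups gave the comparisons of single tumors. The limma script was tested on simulated data. Tables were made with pandas 2.3.3, scipy 1.17.1 and numpy 2.4.6 in Python 3.11.15, and figures with matplotlib 3.10.9. Gene positions came from GENCODE M1, whose assembly is that of mm9, by symbol.

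Alternatives were a pseudocount of 0.1, no filter, a mean FPKM of at least 10, rescaling to equal sums, quantile normalization, the number of genes above 0 as a covariate, a replicate block, eBayes without a trend, each library left out, and a ROC power above 0.4 as the call.

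The 10 genes and the lists were chosen with earlier results of these data known. Named are the 10 genes, each pathway gene past the threshold, the 3 most abundant genes of each pathway list, the 3 genes most like Eng and Id1 in pattern, and of each marker list the most abundant gene and those listed at 0 in all libraries. Other genes were named after their values were seen.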

Additional observations from a re-analysis of the deposited data

How the results depend on the processing

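Counts of the 10 genes past limma's threshold, in which Smad6 is included though it entered the test through tumor-associated libraries alone, depended on the processing. For tumor-associated against control MLECs, 5 genes passed, but 3 without a filter, 3 after rescaling, 2 without a trend, 0 with the covariate for genes above 0 (7 at an unadjusted p under 0.05), and 3 to 5 with 1 library left out. A ROC power above 0.4, which has no p, was reached by 9 of the 10 genes and by 5137 of all 9955. For GL261 against control, 3 became 1 without a filter, 0 with the covariate (3 at an unadjusted p under 0.05), and 1 to 3 with 1 library left out. For B16 against control, 4 became 1 without a filter, 1 without a trend, 0 with the covariate (6 at an unadjusted p under 0.05), and 0 to 3 with 1 library left out. With the covariate, 1019, 933 and 1057 of all genes tested had an unadjusted p under 0.05 in limma in these comparisons, in this order. For GL261 against B16 the count was 0 in limma under each alternative. At an unadjusted p under 0.05 it was 1 or 2, beside 288 to 750 of all genes tested.

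Of all genes tested, 391 passed for tumor-associated against control, 254 of 13553 without a filter, 13 with the covariate, and 245 to 444 with 1 library left out. Without a filter more genes were tested, and in the leave-outs fewer libraries were. For GL261 against control, 257 of all genes tested passed as higher and 90 as lower, and 75 to 299 and 30 to 89 with 1 library left out. For B16 against control these counts were 160 and 50, and 61 to 241 and 8 to 37 with 1 library left out, so that the shares of all genes printed beside the counts of the 10 also depend on single libraries. The causes of the other changes were not tested. Under a mean FPKM of at least 10, Bmp4, Smad6 and Smad7 were not tested.

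The direction turned in values that were not past the threshold. Bmp4 was -0.32 for both tumors, -0.63 for GL261, -0.35 for B16 and -0.28 for GL261 minus B16 with the covariate. Without control replicate 1 Bmp4 was -0.23, -0.051 and -0.42 for both tumors, GL261 and B16 against control. Bmp4 was also -0.37 for B16 without B16 replicate 3, and for GL261 minus B16 it was -0.37, -0.14 and -0.70 without GL261 replicate 1, GL261 replicate 3 and B16 replicate 1. With the covariate, GL261 minus B16 was 0.14 for Eng, -0.072 for Bmpr2 and -0.094 for Id3, and Id2 was 0.26 for GL261 against control. Id3 was -0.045 for GL261 minus B16 after quantile normalization, and Smad7 was 0.18 and 0.15 there without GL261 replicate 1 and B16 replicate 3. With 1 library left out, the highest values of Bmp4 were 1.75, 2.05, 1.56 and 1.61 for both tumors, GL261, B16 and GL261 minus B16, and the lowest of Smad7 for GL261 minus B16 was -0.41. The causes were not tested.

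Same-numbered libraries shared only a number. The correlations of their deviations from the group means lay between -0.03 and 0.04 over 9 pairs, and 3 of 9 libraries correlated best with one of their own number. With a replicate block, 4 of the 10 genes passed for both tumors (Id1 had a limma adjusted p of 0.0543), 3 for GL261 and 0 for B16. For both tumors, 303 of all genes tested passed. At an unadjusted p under 0.05 in limma for B16, 8 of the 10 genes and 1444 of all genes tested passed.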

Other observations

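Hey2 and Msx2, targets of Notch or BMP signaling, were high only in control replicate 1, the library with Acta2 and Myh11. Hey2 had 15.1 FPKM there and at most 0.216 FPKM in the other 8 libraries, and Msx2 had 12.3 FPKM there and was listed at 0 in the other 8. Hey1 was highest there too, at 31.5 FPKM, beside 0 and 1.26 FPKM in the other controls, but had 0.458 to 6.62 FPKM in GL261 and 9.76 to 15.1 FPKM in B16 libraries. These genes were named after their values were seen. Id1, Acvrl1 and Eng were also higher in that library than in the other controls, whereas Id3 was highest in control replicate 2 and Tgfbr2 in control replicate 3.

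Atoh8, a BMP target, was lower without overlap between the groups, at 12.1, 2.47 and 5.06 FPKM in the controls and at most 1.92 FPKM in tumor-associated libraries, against the direction of Id1 and Id3, and did not pass in limma (adjusted p = 0.0943). Pmepa1, a TGF-β target, was higher without overlap, at 0.241 to 2.11 FPKM in the controls and 5.67 to 17.0 FPKM in tumor-associated libraries (limma adjusted p = 0.0874), while Tgfbr2 was lower. Both were named after their values were seen.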
